A study of Daphnia magna with 3 samples.

Results

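Of 33957 Daphnia magna transcript models, 200 were followed because their reads were spread almost evenly over 7 body parts of the animal. A transcript qualified if it had at least 100 reads over the 21 libraries, if each body part held more than 5% of its level, and if no body part held 25% or more. The level in a body part was the median of 3 replicates in CPM, reads divided by the total of the library and multiplied by 1e+06, and a share was that median divided by the sum over the 7 body parts. Of 4596 transcripts with at least 100 reads, 523 (11.4%) met these limits, and the 200 with the lowest highest share were kept, which is 4.35% of the well-counted transcripts. The members were thus chosen by their body part medians in these same libraries, and those medians are described below without a test.

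Daphnia magna is a freshwater water flea. All animals carried the genotype IL-M1-8, lived at 20 °C in ADaM medium with 20 mL per adult, and received Scendesmus acutus, an alga, at 100000 cells per mL each day, according to the labels. RNA came from head, antenna, gut, eggs, hemocytes (blood cells), carapace (the shell around the trunk) and carcass, a part listed also as body, and was sequenced after an Oxford Nanopore ligation protocol for cDNA. Replicates 3, 4 and 7 are each 1 barcoded pool of the 7 body parts, and the labels name no treatment. The labels say neither whether a replicate's body parts came from the same animals nor whether the replicates are separate cultures. P-values below therefore measure the spread between these samples only, and that spread may be technical.

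Transcripts present at similar levels in many tissues are often called housekeeping transcripts, and many known ones encode parts of the machinery that every cell needs, such as ribosomes, proteasomes, the cytoskeleton and energy metabolism. They are used as internal references when other transcripts are compared between tissues. A scale relative to the library total has a cost, since a few very abundant transcripts in a tissue lower the values of all others there even where amounts are equal. The deposited identifiers name gene models on contigs without gene symbols, and 0 of the 33957 matched RefSeq's gene table (assembly ASM2063170v1.1). No function, sequence or position is therefore given for any member.

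The 21 libraries held 4339322 reads, between 4161 in the gut of replicate 4 and 1105094 in the antenna of replicate 7. The 3 gut libraries were the shallowest. The 10 most counted transcripts took 73.6% of the reads in the gut of replicate 4, 73.1% in the head of replicate 4 and 52.7% in the head of replicate 7, but 6.15 to 10.2% in eggs. No pair of replicates of a body part looked like 1 library deposited again, since their counts differed beyond sampling noise in all 21 pairs (chi-square per degree of freedom 3.62 to 73.0). Markers of the body parts could not be checked because the identifiers carry no gene names.

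The most even member was maker-falcon_000028F-augustus-gene-6.36-mRNA-2, a model of 9202 bases with 1092 reads and at least 1 read in all 21 libraries. Its shares ran only between 12.2% in carapace and 16.5% in eggs, where 14.3% would be exactly even. Its levels in replicates 3, 4 and 7 were 234, 313 and 247 CPM in hemocytes, 256, 283 and 328 CPM in eggs, and 248, 240 and 417 CPM in gut. They were 289, 205 and 242 CPM in antenna, 227, 96.3 and 213 CPM in head, 209, 315 and 160 CPM in carapace, and 286, 249 and 273 CPM in carcass. The head of replicate 4 was the low library and the gut of replicate 7 the high one, and the 3 head values lay below every value of hemocytes, eggs, gut and carcass while they overlapped those of antenna and carapace. The gut value of replicate 4 was a single read.

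The next 4 in order were less steady once single libraries were read. Maker-falcon_000017F-augustus-gene-4.1-mRNA-1 had a highest share of 16.6%, yet its hemocyte values in replicates 3, 4 and 7 were 100, 382 and 66.5 CPM and its gut values 217, 0 and 114 CPM. Genemark-falcon_000002F-processed-gene-11.90-mRNA-1 (16.9%) had 398, 108 and 335 CPM in head and 356, 120 and 438 CPM in antenna in the same order. Maker-falcon_000008F-augustus-gene-23.36-mRNA-1 (17.0%) had 404, 0 and 1099 CPM in gut. In maker-falcon_000015F-augustus-gene-25.67-mRNA-1 (16.7%) the 3 carcass values were 114, 33.9 and 115 CPM. In all 4, single libraries lay far from the median that the share is built on.

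At the other end of the list lay maker-falcon_000046F-snap-gene-5.96-mRNA-1 and maker-falcon_000004F-augustus-gene-37.96-mRNA-3, the last members, each with a highest share of 21.7%. The first transcripts beyond the limit, snap_masked-falcon_000004F-processed-gene-26.15-mRNA-1 and maker-falcon_000070F-augustus-gene-2.81-mRNA-1, had 21.7% and 21.8%. The limit of 200 therefore fell inside a continuous range.

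Over the 200 members the highest share lay between 16.5 and 21.7% with a median of 20.2%, against a median of 34.9% in the other transcripts with at least 100 reads. The lowest share lay between 5.01 and 12.2% with a median of 7.96%, against 1.31% in the others. The highest body part exceeded the lowest by a median factor of 2.47, from 1.35 to 4.19, and 18 members had all 7 shares between 10 and 20%. Members were thus even within a few-fold, not equal. Fewer cells of a kind and less RNA per cell cannot be told apart in such bulk samples.

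Head was the body part where most members were lowest, and no body part was highest in most of them. The median share of a member was 15.7% in hemocytes, 16.4% in eggs, 15.1% in gut, 13.4% in antenna, 8.89% in head, 15.4% in carapace and 14.9% in carcass. Of the 200 members, 115 had their lowest share in head, 24 in antenna and 16 in eggs. The highest share fell in eggs for 55 members, in hemocytes and in carapace for 36 each, in carcass for 31, in gut for 26, in antenna for 15 and in head for 1. Of all 4596 transcripts with at least 100 reads, 2323 were highest in eggs and 91 in head. Among those that were not members the median share was 24.5% in eggs, 6.94% in gut and 6.08% in head. A low head share was thus not particular to the members.

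This order depended on the scale. With TMM factors, which rescale each library so that the bulk of transcripts does not shift, the median share of the same 200 members was 16.2% in head and 17.95% in antenna but 8.93% in eggs and 9.54% in gut. With RLE factors, another such scaling, it was 13.97% in head, 18.3% in antenna, 13.1% in eggs and 11.1% in gut. Under TMM 95 members were lowest in eggs and 0 were highest there, and under RLE 82 were highest in antenna and 58 lowest in gut. The TMM factor was 0.237 for the head of replicate 4 and 0.454 for the head of replicate 7, and 1.68 to 1.91 for the egg libraries. Of the members, 135 still met the limits on shares under TMM and 165 under RLE.

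**Figure D1:**
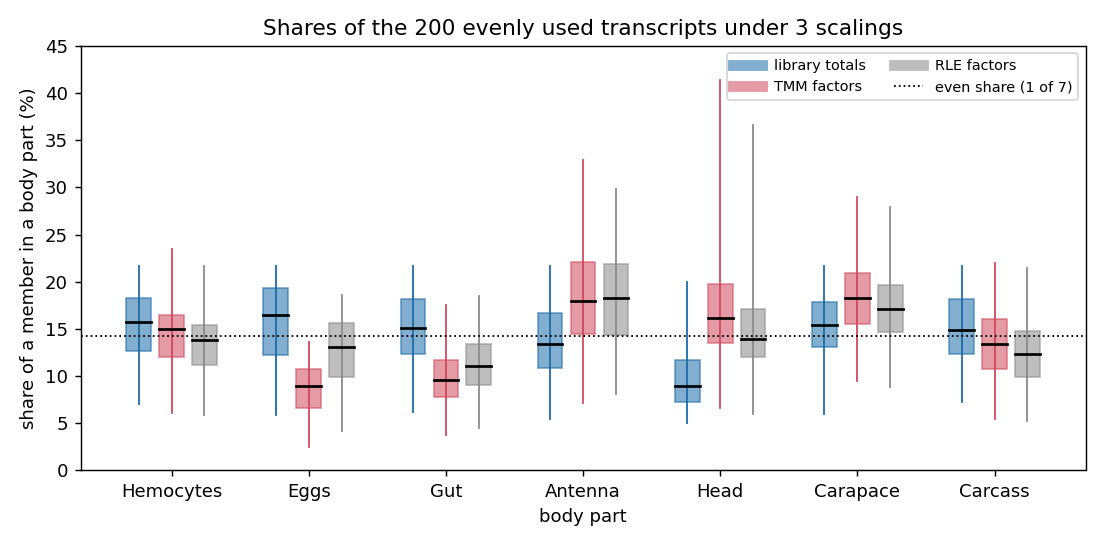
Share (%) of each of the 200 members in each body part, from medians of 3 replicates, for library totals, TMM and RLE factors. Boxes span the middle 50% of members, black lines are medians, thin lines reach the lowest and highest member and the dotted line marks 14.3%. With library totals head lies lowest at a median of 8.89%, and with TMM eggs lie lowest at 8.93%.

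The members were moderately expressed. The mean of the 7 median levels ran between 23.5 and 2027 CPM with a median of 68.5 CPM, against 53.1 CPM in the other well-counted transcripts. It was under 50 CPM in 67 members, from 50 to 100 CPM in 60, from 100 to 500 CPM in 54 and above that in 19. Per kilobase of transcript the median was 19.5 CPM in members and 20.2 CPM in the others. The members together held 179831 reads, 4.14% of all, and the best counted of them ranked 33 among all transcripts.

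The depth behind a share was uneven. A member had a median of 312.5 reads over the 21 libraries (102 to 9524), against 253 in the other well-counted transcripts. Of these, a median of 85 reads came from the 3 antenna libraries, 63 from carcass, 55 from eggs, 41 from carapace, 30.5 from hemocytes, 25.5 from head and only 6 from gut. In the gut of replicate 3 the median was 3 reads, for which the exact 95% Poisson interval is 0.619 to 8.77 reads. Such intervals cover counting error only. A gut share of a typical member is therefore known only within several-fold.

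The gut of replicate 4 could hardly contribute. In it 1 read was worth 240 CPM, so a count of 0 allows up to 3 reads or 721 CPM. Of the members, 154 had 0 reads there, and for all 154 the gut median was simply the lower value of replicates 3 and 7. The members had 96 reads in that library, while the level of the other 2 gut libraries would give 244.

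Members were more often detected throughout than other transcripts, which the rule favours because every median had to be above 0. A read in all 21 libraries was found for 38 members (19.0%), against 357 of the 4396 other transcripts with at least 100 reads (8.12%). A read in at least 20 libraries was found for 169 members (84.5%), against 38.3% of the others.

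Read as a sum, the members took a share of each library that differed most in head and gut. In head they took 5.70, 1.53 and 2.42% of the reads in replicates 3, 4 and 7, a mean of 3.22 ± 2.19% (SD, n = 3). In gut the mean was 4.76 ± 2.44%, with a high of 7.19% in replicate 7. Both spreads exceeded the distance between the means of any of the body parts.

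The mean was 5.31 ± 1.52% in hemocytes, 4.37 ± 0.272% in eggs and 3.73 ± 0.481% in antenna. It was 4.38 ± 0.949% in carapace and 5.36 ± 0.682% in carcass. Eggs varied least between replicates. Over whole pools of 7 body parts the members took 4.64% (replicate 3), 4.41% (replicate 4) and 3.85% (replicate 7) of the reads.

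When the 10 most counted transcripts of each library were left out of that library, the members' share varied less between replicates in 6 of the 7 body parts and more in antenna. It was 5.94 ± 0.978% in head, with 7.02, 5.67 and 5.12% in replicates 3, 4 and 7. It was 6.68 ± 0.147% in gut, 6.11 ± 0.593% in hemocytes, 5.58 ± 0.622% in antenna, 6.19 ± 0.624% in carapace and 6.03 ± 0.574% in carcass. In eggs it was 4.64 ± 0.203%, so that the 3 egg libraries, at 4.43 to 4.83%, all lay below the other 18, though the nearest, the antenna of replicate 7, stood at 4.86%. This way of counting was chosen after the data had been seen. The 10 left out include members in 5 libraries, for instance 3 members in the hemocytes and 3 in the carcass of replicate 4.

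**Figure D2:**
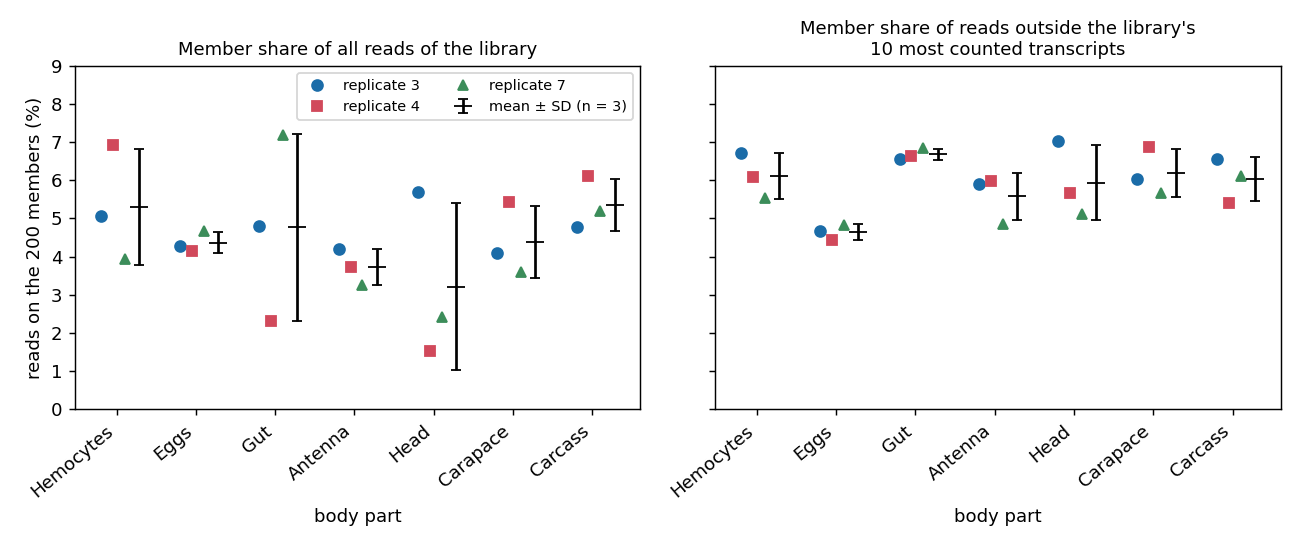
Percent of reads that fell on the 200 members in each library, of all reads (left) and of reads outside the 10 most counted transcripts of that library (right), by body part. Markers are replicates 3, 4 and 7, and crosses with bars are means ± SD (n = 3). Head spans 1.53 to 5.70% on the left and 5.12 to 7.02% on the right, where the 3 egg libraries (4.43 to 4.83%) lie lowest.

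Single members were also set against their own median over the 21 libraries, in CPM of library totals. In the head of replicate 4, 157 of the 200 members lay under 50% of it. In the gut of replicate 4 this held for 161. There 1 read is worth 240 CPM and the level of the other gut libraries would give a median of 0.426 reads, so a typical member could hardly be measured. Well-counted members went both ways. Genemark-falcon_000023F-processed-gene-4.65-mRNA-1 had 0 reads where that level would give 12.1, and maker-falcon_000008F-augustus-gene-10.86-mRNA-1 had 12 where it would give 11.5. The cause was not tested. Under 50% of their own median also lay 59 members in the head of replicate 7 and 43 in the antenna of replicate 4. In the hemocytes of replicate 7 and the carcass of replicate 4 it was 37 each. More than 2 times the own median was reached by 45 members in the gut of replicate 7 and by 33 in the hemocytes of replicate 4. With TMM factors the head of replicate 4 had 20 members under 50% of their median, the eggs of replicates 3, 4 and 7 had 55, 95 and 39, the carcass of replicate 4 had 38 and the gut of replicate 7 had 35. On that scale the heads of replicates 4 and 7 each had 43 members above 2 times their median.

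**Figure D3:**
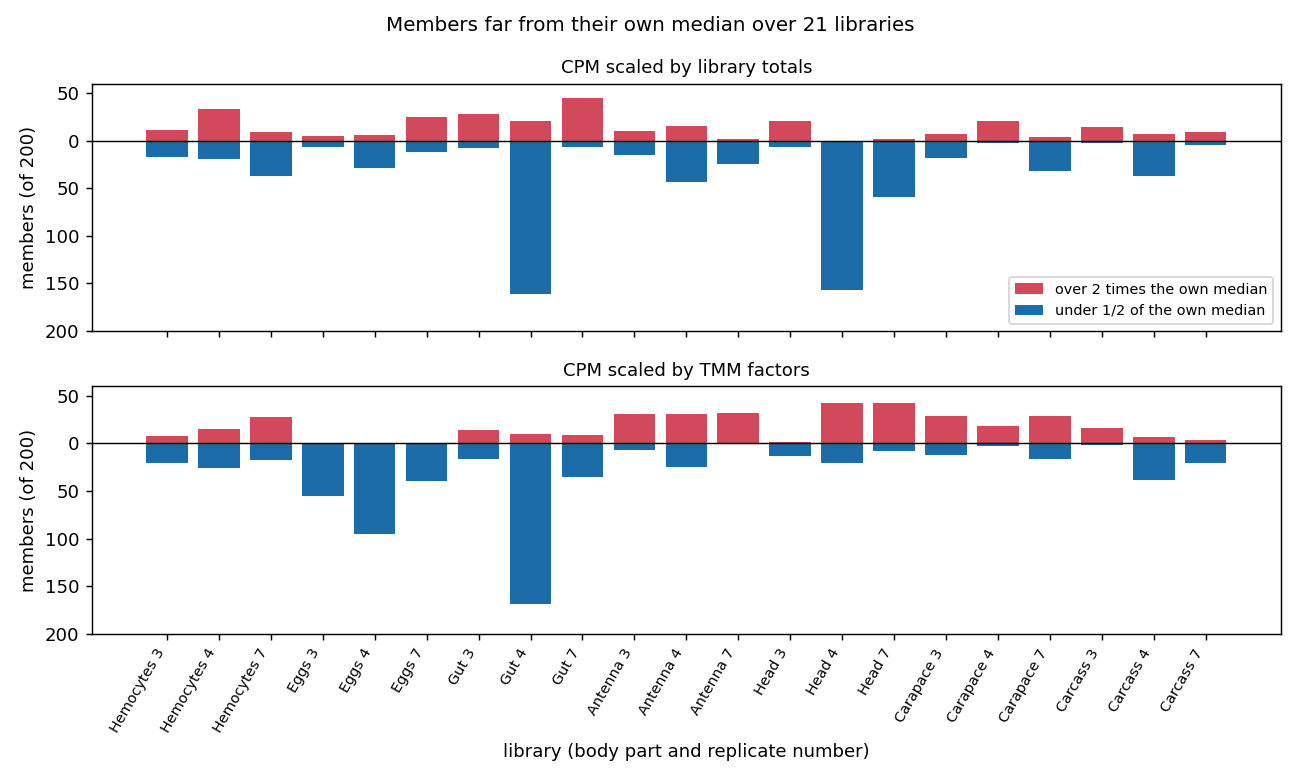
Number of members (of 200) above 2 times (upward) or under 50% (downward) of their own median over the 21 libraries, for each library. With library totals the gut and head of replicate 4 hold 161 and 157 low members. With TMM factors the eggs hold 39 to 95 low members, and the heads of replicates 4 and 7 hold 43 high ones each.

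Few members stayed close to their median everywhere. With library totals, 0 members and 0 of the 4396 other well-counted transcripts had all 21 libraries within 2 times of their median. Without the 3 gut libraries it was still 0 members, against 10 of the others (0.227%). Leaving out also the heads of replicates 4 and 7 gave 19 members (9.50%), against 45 of the others (1.02%). Many members lay low in those heads on this scale, so the omission was not blind to the values.

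With TMM factors and without gut, 13 members (6.50%) had all 18 libraries within 2 times of their median, against 88 of the others (2.002%). Without the heads of replicates 4 and 7 as well it was 14 members (7%), against 123 of the others (2.80%). These counts are descriptions, since the rule limits body part medians. Of the 13, maker-falcon_000012F-augustus-gene-2.69-mRNA-1 lay between 136 and 346 CPM with a median of 244 CPM on that scale, and maker-falcon_000032F-augustus-gene-4.32-mRNA-6 between 38.4 and 91.6 CPM with a median of 66.9 CPM. Both were named after their values were seen. The most even member of the rule was also among the 13, at 153 to 505 CPM.

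The spread between replicates is the property that the rule left freest, because a median ignores 1 outlying value of 3. Measured on log2 CPM with TMM factors and a prior count of 2, 174 of the 200 members passed the filter on low counts, among 4035 transcripts in all, and 26 members did not. The SD over the 21 libraries had a median of 0.92 in the 174 members, against 1.09 in all 4035 tested transcripts, and 132 of the 174 lay below 1.09. Part of this is the choice itself, since the SD of the 7 body part means was 0.59 in members and 0.80 in all tested transcripts.

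Within body parts the members differed less from the rest. The residual SD had a median of 0.87 in members and 0.94 in all tested transcripts, with 102 of the 174 below the value of all tested transcripts. Without gut the residual SD was 0.58 in members and 0.74 in all tested transcripts, and 136 of the 174 were below. The tested members also had more reads, a median of 359 against 292. Of 5 bins of mean level, bin 1, the lowest, held 0 members. In bins 2 to 5 the median residual SD over 21 libraries was 0.92, 0.84, 0.86 and 1.02 in members. It was 0.92, 0.91, 0.96 and 1.07 in the others. With a prior count of 5 it was 0.64 in members and 0.67 in all tested transcripts, with 94 of the 174 below. edgeR's dispersion had a median of 0.175 in members and 0.201 in all tested transcripts.

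The 4 steadiest members over the 21 libraries were maker-falcon_000058F-augustus-gene-3.126-mRNA-1 (SD of log2 CPM 0.32), maker-falcon_000009F-snap-gene-20.56-mRNA-1 (0.40), maker-falcon_000018F-snap-gene-19.90-mRNA-1 (0.45) and maker-falcon_000008F-augustus-gene-19.34-mRNA-1 (0.48). All 4 had exactly 1 read, 240 CPM, in the gut of replicate 4. For maker-falcon_000058F-augustus-gene-3.126-mRNA-1 that was the highest of its 21 values in CPM, the others lying between 34.6 and 239 CPM. On the log2 scale with TMM factors the same read stood at 7.06, inside its range of 6.26 to 7.54. In maker-falcon_000058F-augustus-gene-3.126-mRNA-1 the values of replicates 3, 4 and 7 were 117, 166 and 85.0 CPM in hemocytes, 165, 239 and 166 CPM in eggs, and 122, 40.1 and 34.6 CPM in head. Its head values in replicates 4 and 7 were the lowest of its 21, on the scale of library totals.

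The 3 members with the largest SD were genemark-falcon_000023F-processed-gene-4.65-mRNA-1 (1.75), maker-falcon_000023F-snap-gene-16.15-mRNA-1 (1.61) and maker-falcon_000022F-augustus-gene-2.40-mRNA-2 (1.56). All 3 had 0 reads in the gut of replicate 4, and without gut their SDs were 0.56, 0.64 and 0.75. Their rank as most variable thus came from the gut libraries.

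The best counted members show how different even transcripts can be inside a body part. Genemark-falcon_000023F-processed-gene-4.65-mRNA-1 had the most reads, 9524. In replicates 3, 4 and 7 it stood at 2102, 1947 and 2467 CPM in hemocytes, 2212, 1477 and 3355 CPM in eggs, and 2236, 0 and 3753 CPM in gut. In the same order it stood at 3100, 1401 and 2186 CPM in antenna, 2418, 550 and 1032 CPM in head, 1376, 1455 and 1837 CPM in carapace, and 2014, 2581 and 3291 CPM in carcass. The gut and head of replicate 4 and the head of replicate 7 were its low libraries, and all others lay at 1376 CPM or above.

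Augustus_masked-falcon_000015F-processed-gene-21.19-mRNA-1, with 7068 reads over a model of 2922 bases, had the lowest residual SD within body parts of the 174 members, 0.27. Its values in replicates 3, 4 and 7 were 2235, 2749 and 1718 CPM in hemocytes, 1166, 1181 and 1445 CPM in eggs, and 2081, 2644 and 2199 CPM in gut. They were 1849, 2630 and 1403 CPM in antenna, 1939, 602 and 1073 CPM in head, 1866, 2590 and 2224 CPM in carapace, and 1873, 1875 and 1744 CPM in carcass. Its 3 gut values lay close together even with 11 reads in the gut of replicate 4, and its 3 egg values lay below all values of gut, hemocytes, carapace and carcass.

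Maker-falcon_000008F-augustus-gene-10.86-mRNA-1, a short model of 626 bases with 9248 reads, was highest in 1 pool in most body parts. In replicate 4 it reached 9724 CPM in hemocytes, 9292 CPM in carcass and 4259 CPM in carapace, while replicates 3 and 7 had 2886 and 1248 CPM, 2868 and 2185 CPM, and 1866 and 961 CPM in the same body parts. In head the order differed, with 4301 CPM in replicate 3, 1011 CPM in replicate 4 and 611 CPM in replicate 7. Its medians met the evenness limits, with shares between 7.12% in head and 20.3% in hemocytes.

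A similar pattern was seen in genemark-falcon_000028F-processed-gene-3.53-mRNA-1 (8358 reads), at 2336, 9636 and 717 CPM in hemocytes and 1846, 7829 and 2154 CPM in carcass in replicates 3, 4 and 7. Its gut values were 2050, 961 and 5573 CPM. Maker-falcon_000000F-augustus-gene-23.91-mRNA-2 (6862 reads) had 2252, 3708 and 1149 CPM in hemocytes and 1571, 5400 and 1984 CPM in carcass. All 3 of these well-counted members were high in the hemocytes and carcass of replicate 4.

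**Figure D4:**
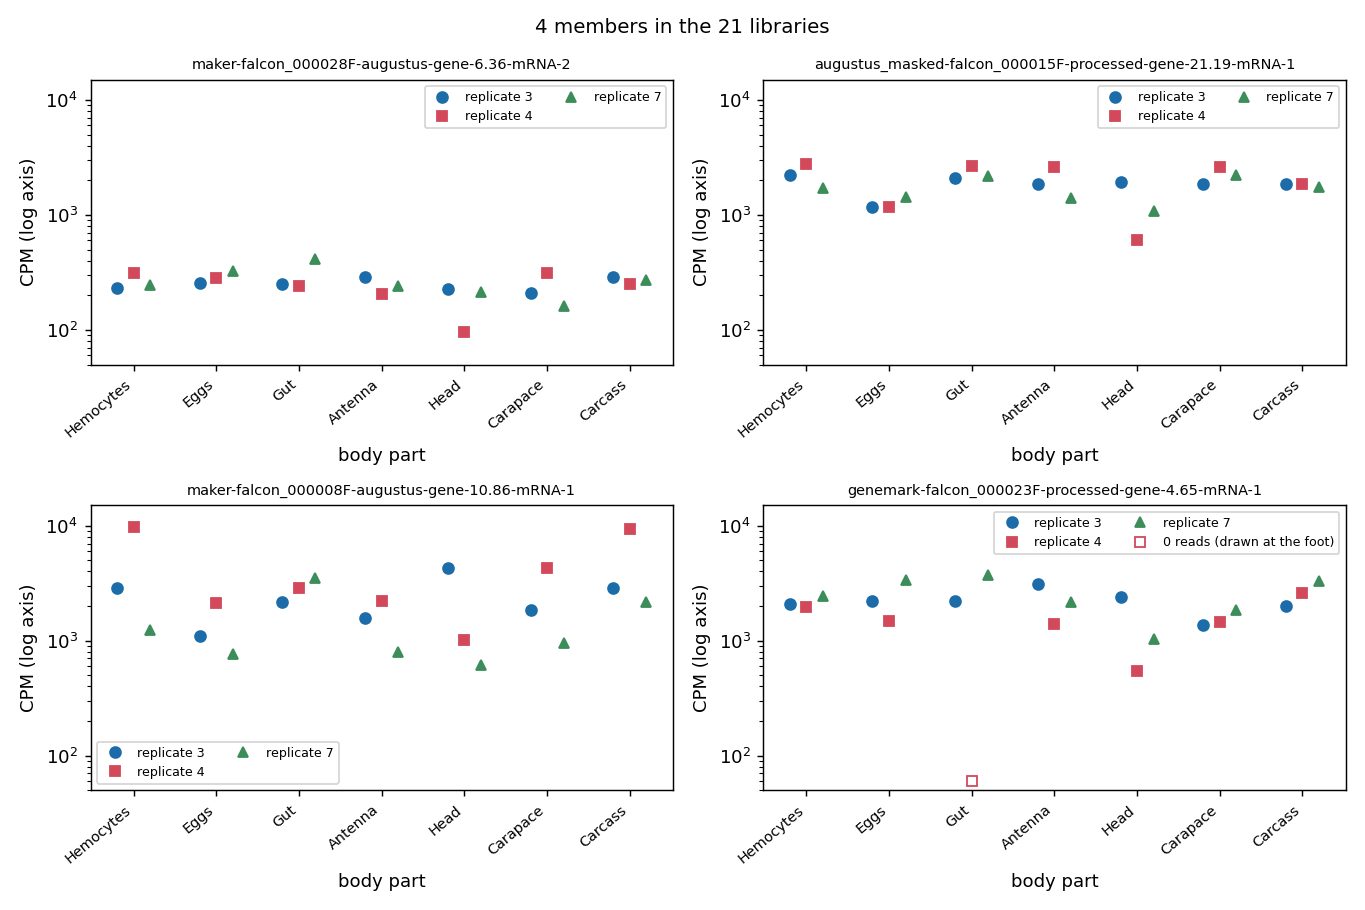
CPM (log axis) of 4 members in each body part, with a marker for each of replicates 3, 4 and 7 and an open marker at the foot for 0 reads. The upper pair are the most even member and the member with the lowest residual SD (0.27). The lower pair are a member at 9724 CPM in hemocytes and 9292 CPM in carcass of replicate 4, and the most counted member, with 0 reads in the gut of replicate 4.

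Differences between the pools were tested over all 4035 transcripts with edgeR's quasi-likelihood test, body part as a term and Benjamini-Hochberg adjustment. This comparison did not choose the members, although they had to hold a level in every body part. In the joint test of the 3 replicates, 1 of the 174 members passed an adjusted p of 0.05, against 0.743% of all tested transcripts. It was genemark-falcon_000000F-processed-gene-30.113-mRNA-1 (adjusted p = 0.0318), which is named after its value was seen. An unadjusted p below 0.05 was found for 30 members (17.2%), against 620 of all tested transcripts (15.4%). DESeq2 called 27 members in the same joint test, against 402 of all tested transcripts (9.96%), so the number of members that differed between pools depended strongly on the tool. Where libraries were left out, the filter on low counts was run again, so the tested set changed as well. The shares of all tested transcripts called in those runs are not given. Without the gut libraries edgeR's joint count was 3, and it was 2 without replicate 3 or without the head of replicate 3. It was 0 without replicate 4 or 7, and 0 without any 1 library of hemocytes, eggs or carapace, the antenna of replicate 3 or 7, the head of replicate 4 or 7, or the carcass of replicate 4 or 7.

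Replicate 7 was higher than replicate 4 in 3 members by edgeR (background 0.644%) and lower in 0 (background 0.991%), while DESeq2 called 23 higher (13.2%, against 6.32% of all tested transcripts) and 7 lower (4.02%, against 5.87%). Replicate 4 over 3 and replicate 7 over 3 gave 0 members in either direction by edgeR (background 0%), while DESeq2 called 4 higher (2.30%, against 0.967% of all tested transcripts) and 7 lower (4.02%, against 2.58%) for 7 over 3. For 4 over 3 DESeq2 called 0 higher (background 0.273%) and 2 lower (1.15%, background 0.719%), with no adjusted p for 106 of the 174 members. The median log2 fold change of the 174 members was 0.27 for 7 over 4, 0.08 for 7 over 3 and -0.17 for 4 over 3, against 0.16, 0.04 and -0.08 in all tested transcripts. The comparisons share replicates and are not independent.

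The largest difference of 7 over 4 was that of maker-falcon_000022F-augustus-gene-19.39-mRNA-1. In replicate 7 it had 55.4 CPM in hemocytes, 163 in eggs, 152 in gut, 65.2 in antenna, 51.9 in head, 141 in carapace and 76.8 in carcass. In replicate 4 it had 29.3 CPM in hemocytes, 12.6 in eggs, 0 in gut, 51.2 in antenna, 12.0 in head, 50.5 in carapace and 16.9 in carcass. Replicate 7 was the higher in all 7 body parts, and the log2 fold change was 1.94 ± 0.41 (SE; edgeR adjusted p = 0.0182).

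Snap_masked-falcon_000026F-processed-gene-7.27-mRNA-1 had 70.2 CPM in hemocytes, 76.7 in eggs, 75.8 in gut, 41.6 in antenna, 23.1 in head, 56.5 in carapace and 40.8 in carcass of replicate 7. In replicate 4 it had 29.3 CPM in hemocytes, 31.4 in eggs, 34.2 in antenna and 33.6 in carapace, and 0 in gut, head and carcass. The log2 fold change of 7 over 4 was 1.76 ± 0.45 (SE; edgeR adjusted p = 0.048). The other called member had 1.73 ± 0.39 (SE; adjusted p = 0.0309).

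The count of 3 changed when single libraries were left out. The filter on low counts was then run again, so the tested set changed too, from 174 members to 192 without the antenna of replicate 3. How much of a change came from the library itself was not tested. The shares of all tested transcripts called in each case are not given, so the counts are not read as changes in the members. The count was 0 without the hemocytes, eggs, carapace or carcass of replicate 4, and 0 without the eggs or carcass of replicate 7. It was 1 without the hemocytes, eggs, antenna or carapace of replicate 3, 1 without the antenna of replicate 4, and 1 without the hemocytes, antenna, head or carapace of replicate 7. It was 5 without the gut or head of replicate 3, 7 without all gut libraries and 6 without only that of replicate 7.

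The body part tests use the contrast that chose the members, and are given only to place the TMM-scaled values. In edgeR's joint test of the 7 body parts 12 of the 174 members (6.90%) passed, against 36.7% of all 4035 tested transcripts. In eggs against the mean of the other 6 body parts 40 members (23.0%) were lower and 0 higher, against a background of 23.7% lower and 20.8% higher. Higher calls went to 3 members in antenna (background 11.7%), 1 in head (background 2.3%) and 5 in carapace (background 11.9%), which are 9 different members. These fits had no term for the pool. With the pool as a block in the fit, antenna had 6 and carapace 8, for which no background is given. In hemocytes (background 2.45% higher), gut (0.248% higher) and carcass (2.48% higher and 0.0248% lower) 0 members were called either way. Lower calls in antenna (background 3.74%), head and carapace (0.273%) also numbered 0, and 127 of the 174 had no call in any of the 7 contrasts.

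The 40 lower calls in eggs changed with the scaling and when libraries were left out, which also changed the set of tested transcripts. For instance, 155 members were tested without replicate 7 and 192 without the antenna of replicate 3. Where no background is printed, the share of all tested transcripts is not given, and the count is not read as a change in the members. There were 7 with RLE factors (background 17.7%), 17 with DESeq2 (background 21.5%) and 1 with plain library totals (background 14.002%). There were 11, 5 and 15 without the eggs of replicate 3, 4 and 7, and 3, 4 and 20 without the whole replicate 3, 4 and 7. The joint count of 12 was 0 without replicate 4, 3 without the eggs of replicate 3 or 4, and between 4 and 7 without replicate 3 or 7, the eggs of replicate 7, the hemocytes of replicate 3, the gut, head or carcass of replicate 4, the antenna of replicate 3 or 7, or the carapace of replicate 3. The 3 higher calls in antenna were 1 without replicate 3 or 4 or the antenna of replicate 3 or 7, 5 without the head of replicate 7 and 10 without the hemocytes of replicate 7. The call in head was lost without replicate 4 or 7 or the head of replicate 7, and became 2 without the eggs of replicate 7, 3 without replicate 3 and 4 without the head of replicate 3. The 5 higher calls in carapace were 0 without replicate 3 or 4, the carapace of replicate 3 or 7 or the carcass of replicate 4, and 1 without replicate 7. They were 2 or 3 without any 1 egg library, the gut of replicate 4, the antenna of replicate 3, the carapace of replicate 4 or the carcass of replicate 7.

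The lowest adjusted p in the joint test belonged to maker-falcon_000022F-snap-gene-13.72-mRNA-1 (0.00327, edgeR). Its values in replicates 3, 4 and 7 were 34.1, 31.4 and 33.7 CPM in eggs and 96.5, 105 and 132 CPM in carapace. These values rest on 6, 5 and 11 reads in eggs and 12, 25 and 14 reads in carapace. Maker-falcon_000021F-snap-gene-13.6-mRNA-3 (0.0185, edgeR) had 424, 205 and 176 CPM in antenna, 136, 214 and 261 CPM in eggs, and 138, 28.1 and 80.7 CPM in head. Its head values lay below its antenna values in every replicate. For both transcripts the body parts shown were picked after the values were seen, so the differences between them are descriptions only.

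Evenness was looked at in replicates that had no hand in the choice. The limits were applied to 2 replicates at a time, 200 transcripts were taken, and their shares were read in the replicate left out, where each body part is 1 library. Of the 200, 97 (48.5%) met the limits in replicate 3, against 513 of 3626 others (14.1%). In replicate 7 it was 72 (36.0%), against 206 of 2468 others (8.35%). In replicate 4 it was 2 (1%), against 10 of 3707 others (0.270%).

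The median highest share in the left-out replicate was 23.2% in the selected transcripts and 32.0% in the others for replicate 3. It was 25.9% in the selected transcripts and 35.9% in the others for replicate 7, and 30.2% in the selected transcripts and 39.8% in the others for replicate 4. The selected transcripts were thus more even than the others in each left-out replicate, and most of them missed at least 1 limit there. In replicate 4 the gut, with 4161 reads, gives most transcripts a share of 0. There 39 of the selected had a read in all 7 body parts, against 12.0% of the others. A highest share below 25% was found for 21 of the selected, against 3.64% of the others. Few also met the limits there without gut, as given below, and the cause was not tested. With TMM factors, 102, 17 and 100 of the selected met the limits in replicates 3, 4 and 7, against 19.3, 1.97 and 20.2% of the others. Without gut, over 6 body parts, it was 82, 9 and 38, against 9.21, 1.70 and 6.01% of the others.

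The 3 selections held 80, 59 and 65 of the 200 members when replicate 3, 4 and 7 was left out. Membership thus depended on which replicates were used.

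**Figure D5:**
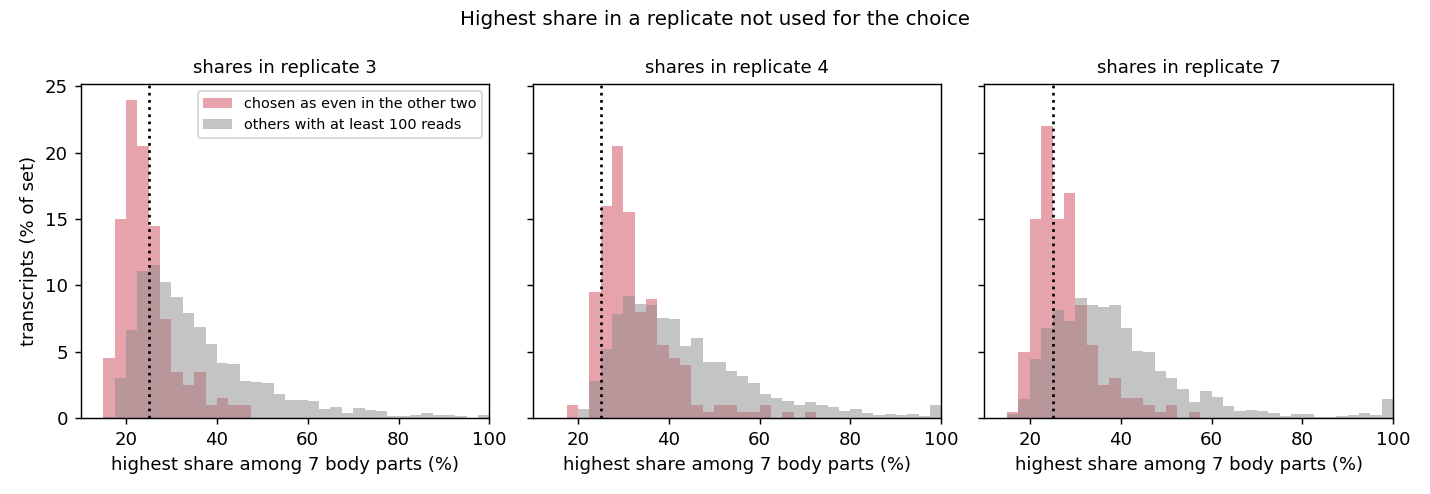
Distribution (% of set) of the highest share among the 7 body parts in replicate 3, 4 or 7, for 200 transcripts chosen as even in the other replicates (red) and for the other transcripts with at least 100 reads (grey). The dotted line is the limit of 25%. The selected medians are 23.2, 30.2 and 25.9%, against 32.0, 39.8 and 35.9% in the others.

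Length and the form of the identifier were not used by the rule. The members were longer models, with a median of 3644 bases (177 to 18061), against 2748.5 bases in the other transcripts with at least 100 reads and 927 bases over all 33957. More than 2000 bases were found in 156 members (78.0%), against 63.2% of the other well-counted transcripts. The 323 transcripts that met the limits but lay beyond the first 200 had a median of 2935 bases. Length was not tested, because transcripts that share samples and annotation are not independent replicates.

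The shortest member, genemark-falcon_000011F-processed-gene-8.11-mRNA-1, was 177 bases long and had 1872 reads. It had 557, 540 and 482 CPM in eggs and 422, 84.2 and 144 CPM in head in replicates 3, 4 and 7. The longest, augustus_masked-falcon_000013F-processed-gene-24.70-mRNA-1, was 18061 bases long with 184 reads, and had 34.1, 44.0 and 95.1 CPM in eggs and 56.8, 8.02 and 28.8 CPM in head. Each was lower in the head of replicate 4 than in any other library where it had a read.

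The first word of an identifier was maker, an annotation pipeline, for 138 members (69.0%), against 74.98% of the other well-counted transcripts. It was the name of a gene predictor in the rest, genemark for 29 (14.5%), against 10.99%, augustus_masked for 26 (13.0%), against 9.76%, and snap_masked for 7 (3.50%), against 4.28%. An isoform number above 1 was carried by 57 members (28.5%), against 25.1% of the others.

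The members lay on 52 of the 158 contigs that held a transcript with at least 100 reads. Contig falcon_000000F held 18 of its 360 such transcripts (5%), falcon_000011F 15 of 175 (8.57%) and falcon_000001F 13 of 270 (4.81%), where members made up 4.35% of all 4596, and 21 contigs held 1 member each. In 38 pairs, made of 61 members, both models carried the same contig and the same first gene number. How such models lie to each other was not analysed here, so reads of these pairs may be shared or split between models, and their counts are uncertain.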

How the data were processed

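The authors deposited 1 table with, for every library and transcript, the transcript length in bases, the read count and the RPKM. The counts are whole reads and were used unchanged. The deposited RPKM values were scaled to the total of a replicate pool, not to that of a library (relative gap at most 4.74e-07), and were not used. SAMtools and DESeq2 appear among the tools of the submitters' processing notes. The name of the aligner, build or annotation is not given in the sources used here. Columns of per-sample values without a sample numbered 0.

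Members and lists were chosen with earlier results of these data known. CPM are reads per 1e+06 reads of a library. Tests used edgeR 4.0.16 in R 4.3.3 (quasi-likelihood, TMM factors, filterByExpr with a minimum count of 10, Benjamini-Hochberg over 4035 transcripts, threshold 0.05), with DESeq2 1.42.0 as an alternative, and were first tested on simulated data. The additive term for body parts served the replicate tests. The body part tests had no term for the pool, and a fit with the pool as a block was run as an alternative. Fold changes are log2. Named are the 5 most even members, the 5 best counted, those at the limit, the 4 steadiest and 3 most variable, up to 2 per test direction, and the shortest and longest. Samples of 1 number share a barcoded pool, per the labels, so the numbers pair them. Deviations from body part means correlated above 0.1 in 28 of 63 same-number pairs (median 0.076), against 23 of 126 pairs with different numbers. The precision is set by 4161 to 1105094 reads per library.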

Additional observations from a re-analysis of the deposited data

How the results depend on the processing

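Across alternatives the number of transcripts meeting the limits was 523 as reported, 1082 with TMM, 845 with RLE, 923 with means and 57 with limits of 8 and 20% (322 to 821 without 1 replicate). Of the members, 57 met the stricter limits (100 to 147 without 1 replicate), and 29, 63, 76 and 57 were among the 200 selected with TMM, RLE, means and stricter limits (59 to 80). Leaving out libraries also changed the set of tested transcripts. The counts of called members below carry no share of all tested transcripts, and are not read as changes in the members. Called members, as reported, then under alternatives and without 1 library or replicate, were as follows. The joint body part test gave 12, then 4 with RLE, 3 with all transcripts that had a read and 0 with library totals (0 to 18). Eggs lower gave 40, then 7, 5 and 1 in that order and 17 with DESeq2 (3 to 45), and eggs higher gave 2 with library totals. Hemocytes higher gave 1 with all transcripts that had a read (0 to 1). Antenna higher gave 3, then 7 with DESeq2 and 0 with library totals (1 to 10). Head higher gave 1, then 0 with RLE, DESeq2 or library totals (0 to 4). Carapace higher gave 5, then 0 with RLE, all transcripts or library totals (0 to 6). With the replicate block, the pairing moved antenna higher to 6 and carapace higher to 8, the joint test to 17 and eggs lower to 42, and changed no other count. The joint replicate test gave 1, then 2 with RLE, 27 with DESeq2, 0 with library totals and 3 without gut (0 to 2). For 7 over 4 higher, 3 became 23 with DESeq2, 0 with library totals and 7 without gut (0 to 6), and lower, 0 became 7 with DESeq2 and 3 without gut (0 to 1). For 7 over 3, DESeq2 gave 4 higher and 7 lower and all transcripts 1 higher, and for 4 over 3 DESeq2 gave 2 lower. Transcripts even in the left-out replicate 4 numbered 2, then 17 with TMM, 12 with a limit of 30% and 9 without gut, and in replicate 7 they numbered 72, then 112 with that limit and 38 without gut. The counts without gut used unchanged limits over 6 body parts, where an even share is larger. The members' share of reads in eggs was 4.37%, then 4.85% of tested reads and 4.64% without the 10 most counted, and the same omission gave 5.58% in antenna, 5.94% in head and 6.19% in carapace. The cause of these changes was not tested. The log2 fold change of 7 over 4 was followed for maker-falcon_000022F-augustus-gene-19.39-mRNA-1 and snap_masked-falcon_000026F-processed-gene-7.27-mRNA-1 only. It kept its sign in each alternative, but the call was lost in 30 cases over both members. Depth limits gut most, with a median of 6 reads a member over 3 libraries.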
